A study of Mus musculus with 10 samples.

Results

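The S100 genes encode small calcium-binding proteins with a pair of EF-hand motifs. The 10 members described here, S100a8, S100a9, S100a11, S100a4, S100a6, S100a10, S100a13, S100a16, S100a1 and S100b, were chosen by gene symbol, and all 10 were found both among the 19333 genes listed for cultured OPCs (oligodendrocyte precursor cells, which give rise to the myelin-forming glia) and among the 22064 genes listed for sorted immune cells. The study collected 10 mouse RNA-sequencing libraries in 4 groups. 3 came from OPCs of Olig2-Cre:Apc-fl/fl mice and 3 from OPCs of Apc-fl/fl littermates, called wild type by the study, all purified by binding to antibody-coated dishes and grown for 3 days with PDGFAA, a growth factor that keeps OPCs dividing. 1 library was made from CD4+ cells labelled Th1 and 3 from CD11b+Gr-1+NK1.1+ cells labelled cytotoxic macrophages, all sorted, from Pdgfra-CreER:Apc-fl/fl mice, out of spinal cord tissue taken 18 days after the start of EAE, an immune attack on myelin used to model multiple sclerosis. Every animal therefore carried floxed Apc. Olig2-Cre acts throughout the Olig2 lineage, not in OPCs alone. No source used here states whether CreER was induced, the animals' ages, any pooling, or whether libraries of a group came from separate animals. SDs and p-values below therefore measure only the spread between libraries, which may be technical.

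S100 proteins bind calcium, change shape and then grip target proteins, and most work as dimers. S100A8 and S100A9 join as calprotectin, which fills the cytosol of neutrophils, binds zinc and manganese, and when released signals to Toll-like receptor 4 and the receptor RAGE. S100B is the glial member, made by astrocytes and by cells of the oligodendrocyte lineage. S100A10 is the exception that does not need calcium to hold its partner annexin A2, while S100A4, S100A6 and S100A11 are widely expressed and bind myosin, CacyBP and annexins.

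The library labelled Th1 held 3051730 estimated reads, and each macrophage library held 23174908 to 23564215. Marker genes set limits on what these libraries represent. In the library labelled Th1, 6 of 7 annotated T cell markers had no read (Cd3e, Cd3d, Cd3g, Cd4, Cd2 and Cd28), and Lck stood at 66.3 TPM. Of 6 Th1 markers Ccl5 alone had reads (2265 TPM). Over all genes 6550 of 22064 had a read in that library, so lack of a read was common. There the 10 macrophage and monocyte markers summed to 11272 TPM, of which Lyz2 made up 11006, and the 12 neutrophil markers summed to 7562 TPM, with Ly6g, Mmp8, Mmp9, Elane and Mpo at 0. In the macrophage libraries the same 12 neutrophil markers, all above 1 TPM, summed to between 59563 and 60280 TPM and the 10 macrophage and monocyte markers to between 29099 and 29652 TPM. TPM is the read count per transcript length, scaled to the same total in every library. The OPC comparison exists here only as the authors' deposited table, with no value per library and unknown depth, and it lists 5 neuron markers at 8117 to 122255 mean normalized counts, against 1046 to 11343 for 7 OPC markers and 410 to 26753 for 7 astrocyte markers. Whether its values describe purified OPCs was not tested, so the term OPC here follows the labels.

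S100a8 and S100a9 were the first and second most abundant of all transcripts in the macrophage libraries. S100a8 stood at 13945 TPM in the library labelled Th1, rank 6 among all genes, and at 310011, 312567 and 308610 TPM in the macrophage libraries. S100a9 stood at 3684 TPM in the library labelled Th1, rank 58, and at 64532, 65007 and 65396 TPM in the macrophage libraries. The macrophage values lay close together, with SDs of 2006 TPM around a mean of 310396 for S100a8 and 433 around 64978 for S100a9 (n = 3), and the library labelled Th1 lay far below all of them for both genes. Together the pair took 1.76% of all TPM in the library labelled Th1, while the macrophage libraries gave it 37.4% to 37.8%.

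Transcript length bears on these levels. The deposited FPKM and read counts imply an effective length of 253 bases for S100a8 in the library labelled Th1 and of 183 to 188 bases in the macrophage libraries, against a longest annotated transcript of 498 bases. The effective length of S100a8 was 67.8 bases longer in the library labelled Th1 than the macrophage mean, and those of S100a9 and the control gene Actb were 69.4 and 69.5 bases longer. By reads alone, with no length, S100a8 took 0.372% of the library labelled Th1 and 11.3% to 11.5% of each macrophage library.

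The partners kept a narrow ratio within the macrophage group. The S100a8 to S100a9 ratio was 3.79 by TPM in the library labelled Th1 and 4.80, 4.81 and 4.72 in the macrophage libraries. By reads it was 2.49 in the library labelled Th1 and 2.81 ± 0.034 in the macrophage libraries (SD, n = 3), so the lone library fell below all 3 others on both measures. A single library has no spread of its own, and no test of the ratio was made.

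In the genome S100a8 (GRCm38 chromosome 3, 90668978 to 90670035, plus strand) and S100a9 (90692632 to 90695721, minus strand) are neighbours, 22596 bases apart. They lie at one end of a run of S100 genes between 90511034 and 90695721 that holds 7 of the members, with S100a11 and S100a10 farther along chromosome 3 and S100b alone on chromosome 10. The 150 bases before the starts of the calprotectin pair, of S100a4 and of glial S100b are shown because these genes mark the contrast between immune and glial levels, and the stretch between S100a1 and S100a13 because those genes face away from each other. RefSeq windows on GRCm38.p6 matched 9 members; S100a10 was not among them. Windows end at the RefSeq start, which for S100a8 lies inside the GENCODE span. Capitals mark any match, on either strand, to the 5 motifs named in the next paragraph, and sequences run 5′ to 3′ on the gene's strand (plus strand for the shared stretch).
S100a8 (chr3:90668921-90669070): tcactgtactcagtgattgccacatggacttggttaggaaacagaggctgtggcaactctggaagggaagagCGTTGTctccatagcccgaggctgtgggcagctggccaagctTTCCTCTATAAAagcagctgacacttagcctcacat
S100a9 (chr3:90695722-90695871): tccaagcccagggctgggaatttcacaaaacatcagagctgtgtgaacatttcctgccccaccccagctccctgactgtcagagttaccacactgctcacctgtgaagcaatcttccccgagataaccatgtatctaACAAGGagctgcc
S100a4 (chr3:90603620-90603769): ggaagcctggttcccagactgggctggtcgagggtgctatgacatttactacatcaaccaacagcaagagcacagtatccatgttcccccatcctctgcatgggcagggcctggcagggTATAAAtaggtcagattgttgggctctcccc
S100b (chr10:76253686-76253835): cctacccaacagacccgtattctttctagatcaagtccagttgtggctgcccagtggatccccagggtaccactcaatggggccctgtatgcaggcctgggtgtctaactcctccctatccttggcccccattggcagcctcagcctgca
S100a1-S100a13 (chr3:90514331-90514434): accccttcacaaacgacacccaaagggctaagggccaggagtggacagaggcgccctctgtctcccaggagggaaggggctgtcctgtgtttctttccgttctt

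The letters TATAAA, the core of a TATA box, stood from base -30 to -25 before the start of S100a8 and from -31 to -26 before that of S100a4, and in no other of the 10 member windows of 250 bases (S100a16 has 2 windows). Over all 32851 RefSeq windows of that length 12.4% hold these letters. The motif TTGCNNAA, a pattern found in sites of C/EBP factors, was in 1 member window, that of S100a9, at -236 to -229 and so outside the stretch printed, against 9.56% of all windows. GAGGAA, found in sites of the myeloid factor PU.1, was in 3 member windows, among them that of S100a8, against 23.3% of all, and in S100a8 its match at -36 to -31 directly adjoins the TATA box letters. The motif ACAANG, found in sites of SOX factors, was in 5 member windows against 36.3% of all. GGGCGG, the core of a GC box, was in 3 member windows against 32.7% of all. These matches describe letters only.

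The other members fell in a steep order in the macrophage libraries. After the calprotectin pair came S100a11 at 9636 ± 74.1 TPM, S100a6 at 4987 ± 113 TPM, S100a4 at 1632 ± 10.8 TPM and S100a10 at 763 ± 13.7 TPM (SD, n = 3). S100a1 and S100a13 followed at 127 ± 3.6 and 108 ± 4.7 TPM (SD, n = 3). Glial S100b and S100a16 were near zero, at 0.17 ± 0.012 and 0.15 ± 0.15 TPM (SD, n = 3). Each of the first 8 lay above the next in all 3 libraries with no overlap, by 1.17-fold for S100a1 over S100a13, by 1.93-fold to 6.74-fold higher up the order, and by 650-fold for S100a13 over S100b. The order of S100a1 and S100a13 depends on the length used: with annotated transcript lengths S100a1 averaged 156 and S100a13 158, and S100a13 was higher in libraries A and C. S100b and S100a16 overlapped and could not be ordered.

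**Figure D1:**
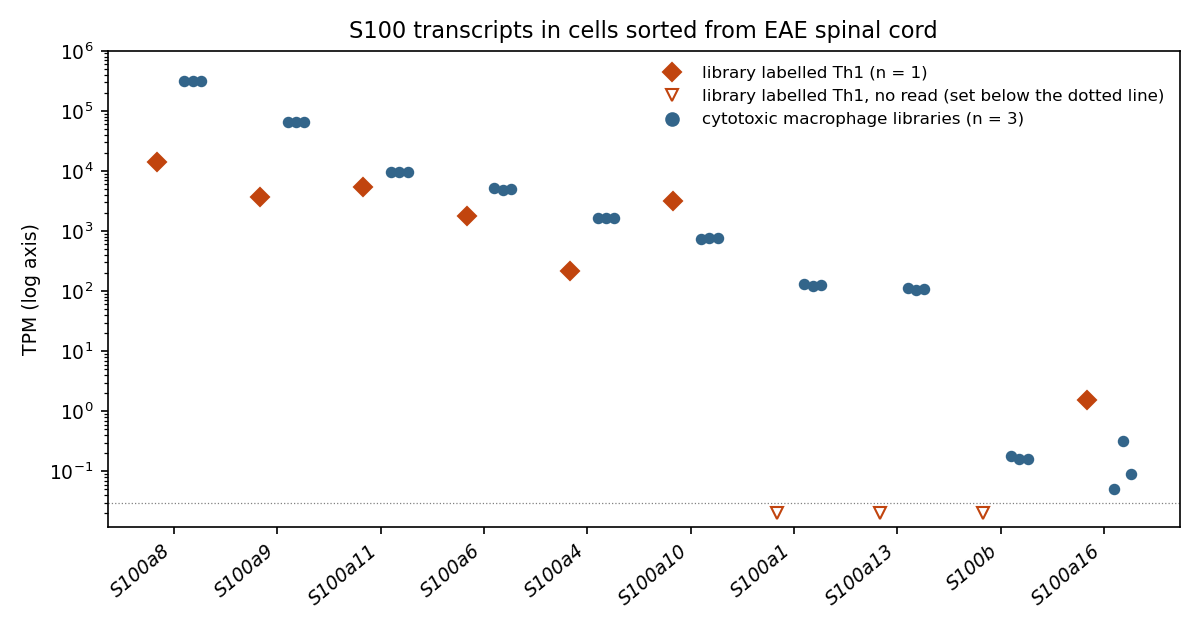
TPM of each member (log axis), ordered by mean level in the macrophage libraries, with the library labelled Th1 as diamonds to the left (open triangles: no read) and the 3 macrophage libraries as circles. S100a10 and S100a16 are the members whose Th1-labelled value lies above all 3 macrophage values, and S100a1, S100a13 and S100b have no read in the library labelled Th1.

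In the library labelled Th1 the family was made up differently. S100a8 was 49.5% of the summed TPM of the 10 members there, against 79.1 ± 0.16% in the macrophage libraries (SD, n = 3). S100a11 was 18.9% in the library labelled Th1 and 2.45 ± 0.020% in the macrophage libraries, and S100a10 was 11.4% and 0.194 ± 0.0030% (SD, n = 3). S100b was absent from the reads of the library labelled Th1 and made up under 0.0001% in each macrophage library, whereas per kilobase of exon in the authors' deposited table for OPCs it was 72.8% of the members' sum.

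**Figure D2:**
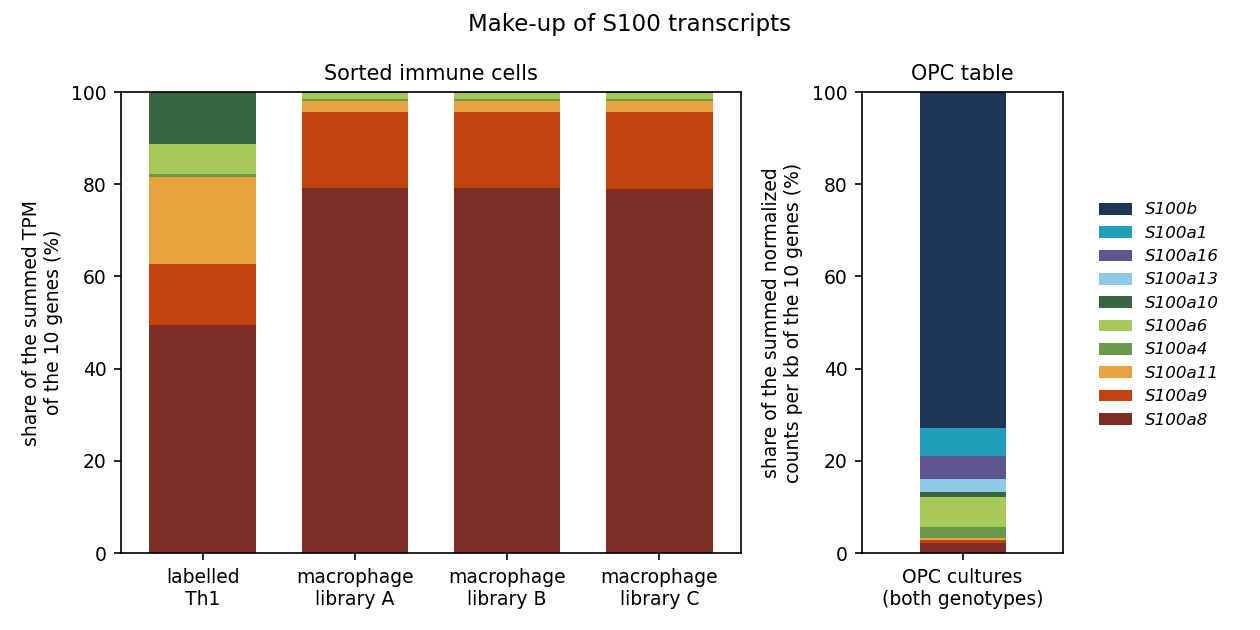
Share of each gene in the summed level of the 10 members, from TPM in the library labelled Th1 and in macrophage libraries A to C, and from mean normalized counts per kilobase in the authors' deposited table for OPCs, which is another scale. S100a8 takes 49.5% in the library labelled Th1 and 78.9% to 79.2% in the macrophage libraries, and S100b takes 72.8% of the sum from the authors' deposited table.

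The next comparison set the library labelled Th1 against the macrophage libraries with edgeR's quasi-likelihood test, with a call needing an adjusted p below 0.05 and a difference of 4-fold or more. All 10 members passed the filter on low counts and were tested, S100a16 with 5 reads in the library labelled Th1 and 2 to 12 in the macrophage libraries. 5 members were lower and 2 higher in the library labelled Th1, where 54.6% of all tested genes were lower and 13.7% higher by the same rule, so the members' shares lie near the background. Among the 7 members with a read in the library labelled Th1 the median log2 fold change was -0.71, against -1.46 over all tested genes with a read there. With 1 library on one side, the spread comes from the macrophage libraries alone.

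Scaling decides much of this comparison. The 2 profiles are so unlike that the median log2 fold change over all genes moved between -5.61 with TMM, -4.32 with the size factors of DESeq2 (RLE) and -6.25 with library size alone, and the higher share of all calls between 20.1%, 36.9% and 11.9%. Over the 1998 genes with at least 10 reads in every library the medians were 3.25, 4.76 and 1.75 in that order. Values of members with reads in every library shift by about as much, while those of S100a1, S100a13 and S100b, with no read in the library labelled Th1, are set by the floor or not detectable.

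S100a8 fell to a log2 fold change of -3.44 with TMM by edgeR (adjusted p = 1.07e-28), and S100a9 to -3.26 (adjusted p = 7.4e-28). With RLE they were -1.92 and -1.75, under the 4-fold limit, and with library size alone -4.93 and -4.76. S100a8 and S100a9 were thus lower in the library labelled Th1 under every scaling. With TMM S100a8 and S100a9 lay below the median of the 1998 shared genes (3.25) but above that of all tested genes (-5.61). The shared genes were kept for reads in every library, including the shallower one labelled Th1. A change of scaling moves a gene and the shared median by about as much, so RLE and library size alone repeat the same gap. The neutrophil marker sum was lower in the library labelled Th1 as well (7562 TPM, against 59563 to 60280 TPM in the macrophage libraries), and Ly6g, one of the antigens that Gr-1 antibodies bind, had no read there and 743 ± 14.2 TPM in the macrophage libraries (SD, n = 3). With TMM 9 of the 12 markers were called lower and none higher, where 54.6% of all tested genes were lower and 13.7% higher. Ltf stood at 709 TPM in the library labelled Th1 and 315 ± 1.4 TPM in the macrophage libraries, and Cxcr2 at 89.4 and 48.4 ± 0.69 TPM in that order (SD, n = 3), neither of them called. The log2 fold change of Ltf was 1.80 with TMM, 3.31 with RLE and 0.30 with library size alone. Camp was at -0.46 with TMM and 1.05 with RLE. The part of neutrophils in the S100a8 and S100a9 values was not tested.

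S100a4 had 251 reads, or 217 TPM, in the library labelled Th1 and 1624, 1644 and 1628 TPM in the macrophage libraries. Its log2 fold change by edgeR was -2.02 with TMM (adjusted p = 2.7e-17), just inside the 4-fold limit. With RLE it was -0.50 and with library size alone -3.51, and leaving out any 1 of the 3 macrophage libraries put it just outside the limit, farthest at -1.94 without library A.

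S100a10 went the other way. It had 5255 reads and 3197 TPM in the library labelled Th1, against 748, 775 and 766 TPM in the macrophage libraries, which it exceeded without overlap. Its log2 fold change by edgeR was 2.86 with TMM (adjusted p = 2.04e-26), 4.38 with RLE and 1.37 with library size alone, the last under the 4-fold limit. Among members with at least 100 reads in every library, S100a10 was the one whose direction was higher in the library labelled Th1 under all 3 scalings. Its values still lay below the shared-gene medians of 3.25 with TMM, 4.76 with RLE and 1.75 with library size alone.

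S100a11 and S100a6 had no stable direction. S100a11 stood at 5324 TPM in the library labelled Th1 and at 9551, 9668 and 9688 TPM in the macrophage libraries, with log2 fold changes of 0.00 with TMM (edgeR adjusted p = 0.937), 1.52 with RLE and -1.49 with library size alone. S100a6 stood at 1784 TPM in the library labelled Th1 and at 5116, 4907 and 4939 TPM in the macrophage libraries, with -0.71 with TMM (edgeR adjusted p = 1.62e-13, under 4-fold), 0.81 with RLE and -2.21 with library size alone. A processed pseudogene of S100a11 lies on chromosome 12 (73961142 to 73961447), and the S100a11 count was not whole in 1 macrophage library (137958.78), so its reads may be shared and its level is uncertain.

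Ratios within a library need no scaling between libraries, but by reads they take no account of effective length. That length was 253 and 185 bases for S100a8 and 510 and 442 for S100a10, the library labelled Th1 before the macrophage mean. Per 1000 S100a8 reads, the library labelled Th1 held 463 S100a10 reads against 5.88 ± 0.13 in the macrophage libraries (SD, n = 3), a 78.8-fold difference in the ratio. The corresponding numbers were 559 in the library labelled Th1 against 51.5 ± 0.59 for S100a11 and 293 against 44.3 ± 0.79 for S100a6. They were 22.1 against 8.26 ± 0.054 for S100a4 and 401 against 356 ± 4.3 for S100a9. By reads S100a9 therefore moved almost in step with S100a8. By TPM the S100a8 to S100a9 ratio was 3.79 in the library labelled Th1 and averaged 4.78 in the macrophage libraries. S100a10, S100a11, S100a6 and S100a4 were all higher relative to S100a8 in the library labelled Th1. So was S100a16, at 0.440 in the library labelled Th1 against 0.0022 ± 0.0020 in the macrophage libraries (SD, n = 3). The S100a16 ratio rests on 5 reads against 2, 12 and 4. All these ratios have S100a8 below the line, and it was itself lower in the library labelled Th1. With TMM S100a10 (2.86), S100a11 (0.00), S100a6 (-0.71) and S100a4 (-2.02) lay below the shared-gene median log2 fold change of 3.25. Relative to S100a8, these members therefore rose less than the median of the 1998 shared genes.

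**Figure D3:**
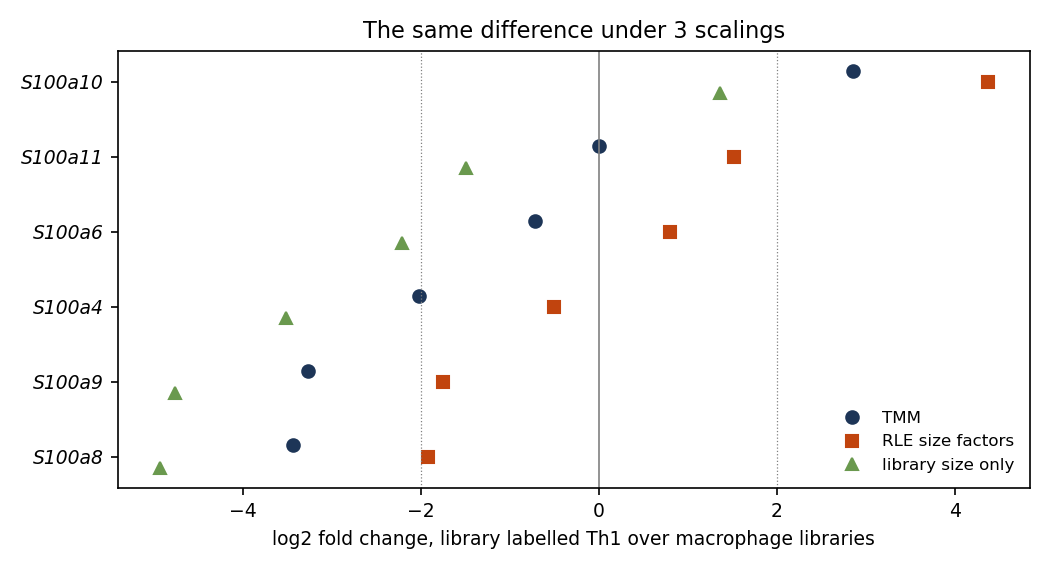
Log2 fold change of the library labelled Th1 over the macrophage libraries for the 6 members with at least 100 reads in every library, under TMM (circles), RLE (squares) and library size alone (triangles), with dotted lines at 4-fold. S100a8, S100a9 and S100a4 stay below 0 and S100a10 above it, while S100a11 and S100a6 change side with the scaling.

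S100a1 and S100a13 were both without a read in the library labelled Th1. S100a1, which binds calcium-handling proteins in heart muscle, had 0 reads there and 2445, 2343 and 2367 reads in the macrophage libraries. S100a13, involved in the release of proteins that lack a signal peptide, had 0 reads in the library labelled Th1 and 2621, 2445 and 2569 reads in the macrophage libraries. Against a floor of 3 reads in the library labelled Th1 (0.983 CPM), they were at least 12.9-fold and 13.7-fold lower, the smallest bounds over the 3 scalings. Intervals and floors here cover counting error only.

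The 2 genes sit head to head on chromosome 3, with S100a1 starting at 90514392 on the minus strand and S100a13 starting at 90514435 on the plus strand, 42 bases apart in GENCODE. RefSeq places their starts around the 104-base stretch printed above, whose GC content is 58.7% and which holds none of the 5 motifs. In the RefSeq windows 4.68% of genes have an oppositely directed start within that distance. In the authors' deposited table for OPCs both had a log2 fold change of -0.21, with SEs of 0.12 for S100a1 and 0.15 for S100a13, and neither passed.

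S100a16 and S100b were at the limit of detection in the sorted cells. S100a16 had 5 reads in the library labelled Th1, or 1.64 CPM with an exact 95% Poisson interval of 0.532 to 3.82, and 2, 12 and 4 reads in the macrophage libraries. Its call by edgeR (log2 fold change 4.14, adjusted p = 0.00286) rests on those 5 reads, was 5.65 with RLE and 2.64 with library size alone, and could not be tested without macrophage library B, where S100a16 did not pass the filter on low counts. S100b had no read in the library labelled Th1 and 12, 11 and 11 reads in the macrophage libraries (0.518, 0.467 and 0.469 CPM), a level under the 0.983 CPM floor of the library labelled Th1. A difference in S100b was not detectable at this depth.

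S100b was the leading member in OPCs, with a mean of 22926 normalized counts in the authors' deposited table, rank 69 of 19333 genes, and 15449 per kilobase of merged exons, rank 30. S100a6, S100a1 and S100a16 followed at 1359, 1289 and 1069 per kilobase in the authors' deposited table. S100a13, S100a4 and S100a8 stood at 625, 518 and 459 per kilobase, and S100a10, S100a9 and S100a11 at 227, 154 and 79.0 per kilobase in the authors' deposited table. The ends of this order differ from those in the macrophage libraries, where S100a11 came next after the calprotectin pair and S100b was near zero. The spread over OPC libraries is not known, so neighbours in this order were not compared. S100b overlaps Dip2a and S100a4 overlaps Gm42674 in the annotation, and no source used here says whether strand was counted.

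Calprotectin transcripts were listed for OPCs too, with S100a8 at a mean of 318 and S100a9 at 80.3 normalized counts in the authors' deposited table, a ratio of 3.97. The 9 neutrophil markers of the authors' deposited table ranged from 3.07 normalized counts for Ly6g to 93.4 for Ngp and summed to 209, and 4 red cell genes summed to 3678. The part of blood cells in the S100a8 and S100a9 values was not tested.

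The authors' comparison asked what changes in OPCs without Apc, a protein that helps destroy beta-catenin and so restrains Wnt signalling. Its table names no numerator. Fold changes below have Apc-deleted cultures on top, a sign read from the Wnt feedback targets Notum, Sp5, Lef1 and Axin2. By the adjusted p-values of the authors' deposited table, 0 of the 10 members were called at 0.05, where 0.393% of all genes were called higher, 0.155% lower and 0.548% in either direction. At an unadjusted p under 0.05 there were 2 members, S100a4 and S100a6, against 3.63% of all genes. 4 of the 10 pointed higher, with a median log2 fold change of -0.10 beside 0.00 over all genes.

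S100a4, a regulator of non-muscle myosin and cell motility, had the largest difference. The mean and fold of the authors' deposited table imply 369 normalized counts in Apc-deleted and 236 in wild-type cultures. Its log2 fold change was 0.65 (SE 0.27, 95% interval 0.12 to 1.17, p = 0.0153, adjusted p = 0.859) in the authors' deposited table. The SE was 1.62 times the median of 200 genes of similar mean level, and the value did not hold up against the correction over all genes.

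S100a6 was implied at 2029 normalized counts in Apc-deleted and 1686 in wild-type cultures, a log2 fold change of 0.27 (SE 0.13, p = 0.0402, adjusted p = 1) in the authors' deposited table. S100a11 had 0.55 (SE 0.37) at a mean of 40.3 normalized counts, with an interval of -0.17 to 1.27, so its change is poorly bounded in the authors' deposited table. S100a10, by the authors' deposited table, stood at 0.01 (SE 0.18), within -0.34 to 0.36. With S100a4, these made up the 4 members above 0 in the authors' deposited table, none of them past its threshold.

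S100b was implied by the authors' deposited table at 21657 normalized counts in Apc-deleted and 24195 in wild-type cultures. Its log2 fold change of -0.16 (SE 0.18) in the authors' deposited table had a 95% interval of -0.51 to 0.19, or 0.702-fold to 1.14-fold, so a change of 2-fold lies outside it. The astrocyte markers beside it had a median log2 fold change of -0.04 over 7 genes and none passed, where 0.548% of all genes passed. Among 7 OPC markers Matn4 rose (1.01, SE 0.24) and Gpr17 fell (-1.16, SE 0.15) in the authors' deposited table. S100a16 was at -0.14 (SE 0.11), and S100a8 and S100a9 at -0.14 (SE 0.17) and -0.07 (SE 0.28), with 95% intervals of -0.36 to 0.08, -0.47 to 0.19 and -0.61 to 0.47 in the authors' deposited table.

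**Figure D4:**
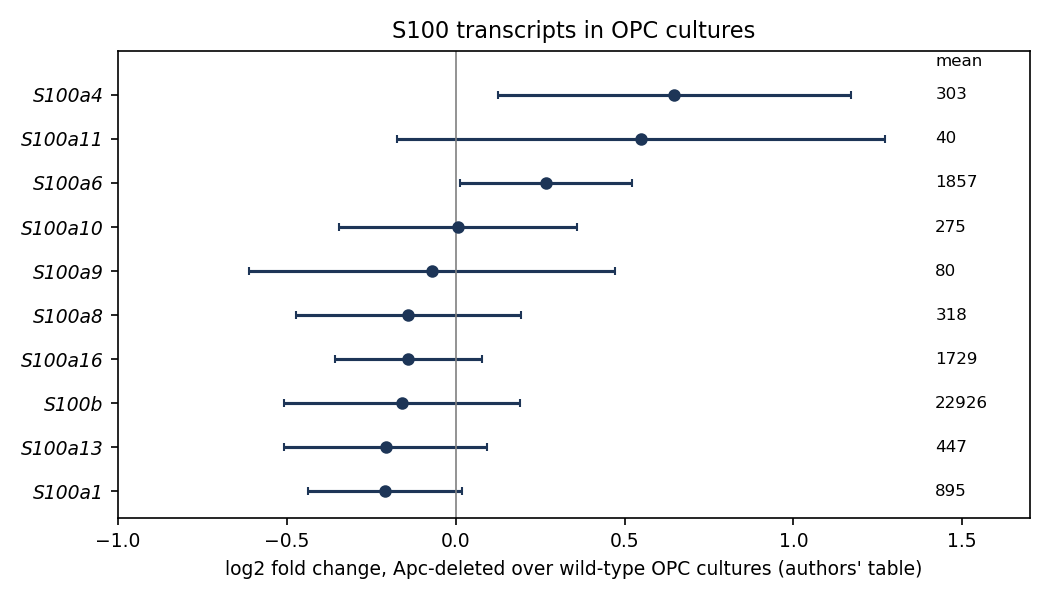
Log2 fold change of Apc-deleted over wild-type OPC cultures for each member in the authors' deposited table, with bars of 95% intervals and the mean normalized counts at the right. The intervals of S100a4 (0.12 to 1.17) and S100a6 (0.01 to 0.52) lie above 0 before correction for all genes, and the other 8 include 0.

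Some markers of other cells differed in the same comparison. Among 8 genes of the macrophage and monocyte list, 7 had a positive value and 2 passed, Lyz2 (4.33, SE 0.96) and Cd68 (1.54, SE 0.36), in the authors' deposited table. Over all 19333 genes there, 9726 had a positive value and 0.548% passed. In that table Csf1r was at 0.01 (SE 0.16) and Adgre1 at 1.87 (SE 0.65, adjusted p = 0.381). S100a8 and S100a9, the members with the highest levels in the macrophage libraries, were at -0.14 and -0.07 in the authors' deposited table. Whether such cells contribute to these values was not tested, and fewer cells of a type and less RNA per cell cannot be told apart in bulk libraries.

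Genes for receptors and adaptors through which released S100 proteins signal had varied levels in the sorted cells. The RAGE gene Ager had no read in the library labelled Th1 and 0.28 ± 0.076 TPM in the macrophage libraries, and Tlr4 had no read in the library labelled Th1 and 0.55 ± 0.012 TPM in the macrophage libraries (SD, n = 3). Cd14, the co-receptor of Tlr4, stood at 734 TPM in the library labelled Th1 and 59.9 ± 2.1 TPM in the macrophage libraries (SD, n = 3), a log2 fold change of 4.27 by edgeR (adjusted p = 1.92e-27) that was 5.79 with RLE and 2.77 with library size alone. The TLR4 partner Ly96 had 0.76 and 53.7 ± 1.5 TPM, the adaptor Myd88 0.17 and 25.4 ± 0.40 TPM, and basigin (Bsg), a receptor for S100A9, 4.17 and 61.4 ± 1.7 TPM, in each case the library labelled Th1 before the macrophage libraries (SD, n = 3). By edgeR with TMM 1 of 7 receptors and adaptors tested was higher and 5 lower, where 13.7% of all tested genes were higher and 54.6% lower. The 5 include these 3, with Bsg at -1.69 under RLE and so under 4-fold. In the library labelled Th1, Ly96 and Myd88 each rest on 1 read and Bsg on 17. Tlr4 and Cd69, both without a read in the library labelled Th1, were at least 1.07-fold and 1.67-fold lower.

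In OPCs 7 of these 8 were measured and 1 passed in the authors' deposited table, where 0.548% of all genes passed. It was the scavenger receptor Cd36, which rose by 1.36 on the log2 scale (SE 0.36, adjusted p = 0.0284) in the authors' deposited table. Tlr4 was at 3.96 (SE 1.37, adjusted p = 0.349) from a mean of 5.19 normalized counts, and Ager at -0.13 (SE 0.42) from 27.0, in the authors' deposited table. The list's median in the authors' deposited table was 1.34 beside 0.00 over all genes, and the macrophage markers Lyz2, Cd68 and Adgre1 stood at 4.33, 1.54 and 1.87. The part of such cells in the receptor values was not tested.

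Annexin A2, which S100A10 holds in a tetramer at the membrane, did not follow its partner closely. Anxa2 stood at 828 TPM in the library labelled Th1 and 498 ± 3.7 TPM in the macrophage libraries (SD, n = 3), with log2 fold changes of 1.40 with TMM, 2.92 with RLE and -0.09 with library size alone. Anxa11, a partner of S100A6, had 0.41 TPM (3 reads) in the library labelled Th1 and 12.1 ± 0.29 TPM in the macrophage libraries (SD, n = 3). Ahnak, the large scaffold bound by the S100A10 and annexin A2 complex, had 0.54 and 10.1 ± 0.20 TPM, again the library labelled Th1 before the macrophage libraries (SD, n = 3). Of 6 genes on the annexin side 1 was higher with TMM, Anxa5 at 196 TPM in the library labelled Th1 and 68.3 ± 1.5 TPM in the macrophage libraries (SD, n = 3), and 4 were lower, beside the same 13.7% and 54.6% of all genes. With library size alone Anxa5 was at 0.67, and with RLE Anxa1 and Ahnak were at -0.82 and -0.90, under the 4-fold limit. None of the 5 annexin-side genes measured in OPCs passed in the authors' deposited table, where 0.548% of all genes passed. Anxa2 was at 0.06 (SE 0.12) there.

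Of 11 intracellular targets 9 were lower in the library labelled Th1 by edgeR with TMM, where 54.6% of all tested genes were lower and 13.7% higher, and 1 was higher, Sugt1 (68.0 TPM in the library labelled Th1 and 11.5 ± 0.27 TPM in the macrophage libraries, SD, n = 3). Cacybp, which S100A6 binds, had 0.63 TPM in the library labelled Th1 and 11.1 ± 0.12 TPM in the macrophage libraries, and Myh9, the myosin heavy chain bound by S100A4, 0.34 and 5.04 ± 0.12 TPM in that order (SD, n = 3). In the library labelled Th1, Cacybp rests on 4 reads and Myh9 on 8. With RLE Cacybp and Myh9 were at -1.98 and -1.77, under the 4-fold limit, and Sugt1 was at 1.69 with library size alone. Cybb belongs to the NADPH oxidase, whose assembly calprotectin aids. It had 0.07 TPM (1 read) in the library labelled Th1 and 36.0 ± 0.097 TPM in the macrophage libraries (SD, n = 3). The GTPase gene Rac2 had no read in the library labelled Th1, at least 189-fold lower than its 267 ± 14.2 TPM in the macrophage libraries (SD, n = 3). In OPCs 1 of 11 targets passed, where 0.548% of all genes passed. It was Cybb, which rose by 1.32 (SE 0.36, adjusted p = 0.0499) in the authors' deposited table, and Cacybp was at 0.00 (SE 0.098).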

How the data were processed

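The 10 members, the gene lists and the tests were chosen with earlier results of these data known. For the OPC comparison the authors deposited 1 table with, per the file headers, a mean of normalized counts (a signal), a log2 fold change with its SE, a statistic (a score), a p-value and its adjusted form; the tool: not given in the sources used here. Its sign was turned to Apc-deleted over wild type and nothing was tested again. For the immune libraries the authors deposited TPM, FPKM and estimated counts per gene. Blanks were taken as 0 and counts rounded to whole numbers; 4 columns of normalized counts were not used. GRCm38 is the build per the submitters' processing notes; for the aligner and counter, not given in the sources used here. Macrophage columns carry codes found in no label, so they were assigned to the group and are named A to C. They differed from each other by more than counting noise (chi-square per gene 1.31 to 2.68). edgeR 4.0.16 (TMM, filterByExpr, quasi-likelihood test, Benjamini-Hochberg over 11447 genes) was run in R 4.3.3. It was tried on counts simulated from the macrophage profile, with few genes changed and as many raised as lowered. That trial could not show how the scaling behaves between profiles as unlike as the real ones. DESeq2 1.42.0 and limma 3.58.1 on log2(TPM + 1) and log2(TPM + 0.1) were alternatives. Gene spans and exon lengths come from GENCODE M21 and promoters from RefSeq. A partner was named if it passed a call, with Ager, Tlr4, Anxa2, Anxa11 and Cacybp named in any case. Other steps ran in Python 3.11.15 with scipy 1.17.1, pandas 2.3.3 and, for figures, matplotlib 3.10.9.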

Additional observations from a re-analysis of the deposited data

How the results depend on the processing

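No paired analysis was possible because the OPC table holds no value per library and the immune columns carry no replicate number shared between groups. With TMM 7 members were called between the library labelled Th1 and the macrophage libraries, while RLE scaling and DESeq2 each called 4 (2 higher, 2 lower). Over all 11447 tested genes, 6245 were called lower and 1567 higher with TMM. The numbers were 3440 lower and 2009 higher with RLE, and 2488 lower and 1929 higher with DESeq2. Lower calls thus fell over all genes as well. Leaving out each macrophage library in turn gave 5 to 6 members. S100a11 turned lower with library size alone (-1.49), without a count filter (-0.44) and with limma on TPM (-0.86 at either pseudocount), and S100a6 turned higher with RLE (0.81) and DESeq2 (0.81). S100b was at 0.0053 with DESeq2, which gave it no adjusted p. The cause of these shifts beyond the scaling itself was not tested. Over the single members, 11 alternatives lost a call, 1 gained one, 7 reversed and 80 did neither. Not counted there is S100a16 without macrophage library B, where it was not tested and so not called. No OPC member passed at an adjusted p under 0.1 or over genes with a mean of at least 10, and 2 passed at an unadjusted p under 0.05. The members' share of macrophage TPM, 39.3%, was 33.9% with annotated transcript lengths (chosen after seeing the data), 2.76% without S100a8 and S100a9, and 39.2% to 39.3% leaving out 1 library. The S100a8 to S100a9 ratio of 4.78 by TPM was 2.81 by reads and 4.76 to 4.81 leaving out 1 library. Per kilobase of its longest transcript S100b kept 15449 normalized counts. Depth limits S100b and S100a16 in the sorted cells.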

Other observations

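Other genes of the family were close to silent in the sorted cells. Of 7 further S100 genes annotated there, S100a3 was the one past 1 TPM, with 28 reads and 16.2 TPM in the library labelled Th1 and 0.32 ± 0.12 TPM in the macrophage libraries (SD, n = 3), a log2 fold change of 6.34 by edgeR (adjusted p = 2.51e-10) that was 7.85 with RLE and 4.84 with library size alone. Its annotated locus lies 1068 bases from that of S100a4. In OPCs S100a3 was at -0.45 (SE 0.35) from a mean of 43.1 normalized counts in the authors' deposited table. All 7 genes that fuse an S100 domain to a larger skin protein, such as Flg and Hrnr, had no read in the library labelled Th1, and 6 of them had none in any macrophage library.

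Among 13 other EF-hand genes 10 were tested in the sorted cells, of which 4 were higher and 2 lower in the library labelled Th1 with TMM, where 13.7% of all tested genes were higher and 54.6% lower. With library size alone Calm2 and Pdcd6 were at 1.68 and 1.82 on the log2 scale, under the 4-fold limit. Hpcal1 stood at 789 TPM in the library labelled Th1 and 63.7 ± 1.9 TPM in the macrophage libraries, the calmodulin gene Calm2 at 476 and 84.7 ± 1.1 TPM, Pdcd6 at 342 and 61.6 ± 0.24 TPM and Efhd2 at 207 and 24.9 ± 0.34 TPM in that order (SD, n = 3). Cib1, without a read in the library labelled Th1 and at 131 ± 1.7 TPM in the macrophage libraries (SD, n = 3), was at least 26.3-fold lower. Lcp1 had 0.37 TPM (4 reads) in the library labelled Th1 and 60.3 ± 0.66 TPM in the macrophage libraries (SD, n = 3). None of the 13 passed in OPCs in the authors' deposited table, where 0.548% of all genes passed.

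Across the 4 immune libraries the non-member genes nearest to S100a8 in centred log2(TPM + 1), among 786 with a mean of at least 100 TPM, were Ndufa6 (distance 0.0678), Atp6v0c (0.254) and Rnaset2a (0.258), with S100a9 at 0.292. Since 3 libraries are nearly alike, this likeness rests on the difference to the library labelled Th1.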
